A study of Mus musculus with 18 samples.

Results

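The effect of the BRAFV600E allele in bone marrow derived dendritic cells (BMDC, dendritic cells grown from marrow in culture) was set against its effect in CD11b+ cells of the liver, gene by gene. The comparison uses 10 of the 18 arrays of the series, and the other 8, of lung CD11b+ and CD103+ cells, served mainly to estimate the spread. The groups were 3 BRAF and 3 WT BMDC arrays and 2 BRAF and 2 WT liver CD11b+ arrays. For each gene the BRAF effect in liver (BRAF minus WT, log2 intensity) was subtracted from the BRAF effect in BMDC. A positive difference thus means a higher BRAF effect in BMDC than in liver. Of 19752 genes measured by probe sets with 1 gene symbol, 15365 passed a filter on low values and were tested.

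BRAF mice carried the BRAFV600E(CA-flox) allele together with CD11c-Cre, and WT mice were Cre-negative littermates that carry the same floxed allele. CD11c-Cre is active in cells that express Itgax (CD11c), and the labels do not say what share of the CD11b+ liver cells recombined the allele. BMDC came from femur marrow of 5-week-old mice, were left untreated and were sorted as live CD11c+CD11b+ cells. Liver cells came from unmanipulated mice of 14 weeks, and no gate other than CD11b+ is stated. Whether the numbered replicates are different animals or cultures is not stated, so the spread behind each p-value is that among these arrays and may be technical. Age and culture differ between the populations along with the organ, so these cannot be told apart in the difference.

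BRAFV600E is a permanently active form of the kinase BRAF, which signals through MEK and ERK to growth, survival and migration genes. Type I interferon signals through the receptor IFNAR to a large set of antiviral genes, which dendritic cells and macrophages also transcribe at a low tonic level. Chemokines such as CCL2 and CCL7 attract monocytes through the receptor CCR2.

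All 10 arrays carried signal for Itgax (10.66 to 12.18 log2 intensity) and for Itgam, which encodes CD11b (9.32 to 11.92). Flt3, the growth factor receptor of conventional dendritic cells, stood at 5.55 to 6.02 on the BMDC arrays and at 9.12 to 9.88 on the liver arrays. Clec4f, a defining marker of Kupffer cells, stood at 6.18 to 7.04 on all 10 arrays, liver arrays included. The 16 genes of the Kupffer cell list averaged 6.91 to 7.29 on the liver arrays, against 6.29 to 6.55 on the BMDC arrays. BRAF BMDC replicate 2 and WT liver replicate 3 had the narrowest values, with log2 interquartile ranges of 1.90 and 1.92 against 2.41 to 2.99 on the other 16 arrays. Every repeat without these arrays has 1 WT liver array, replicate 1, so its liver effects are set against that array alone. Xist stood at 5.08 to 6.08 on BMDC and 10.33 to 11.83 on liver arrays. Eif2s3y, on the Y chromosome, stood at 8.50 to 9.27 on BMDC and 3.64 to 4.81 on 3 liver arrays. Sex and population therefore cannot be told apart in the difference. WT liver replicate 3 had a higher Eif2s3y value than the other liver arrays, together with Xist at 10.33. Kdm5d, another sex-linked gene, stood at 6.43 on it, against 4.98 to 5.05 on the other liver arrays. Uty, a further one, stood at 5.49, close to the 5.47 of BRAF liver replicate 2. Sex-linked signal thus differed within the WT liver group. Its part in the liver effects, and in calls lost without that array, was not tested. Braf itself had a difference of -0.28 ± 0.39 (adjusted p = 0.649, limma), and its sign turned under other scalings. The arrays give 1 value for Braf, whichever allele it comes from.

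The difference of BRAF effects passed the test for 21 genes, 0.137% of those tested (limma, Benjamini-Hochberg adjusted p under 0.05), 18 of them positive (0.117%) and 3 negative (0.0195%). Most of the positive genes were interferon-inducible genes, chemokines and protease inhibitors. The effects had opposite signs for 20 of the 21, positive in BMDC and negative in liver for 17 and the reverse for 3, a split that a large difference favours by its construction. Without an adjustment for multiple tests, p was under 0.05 for 855 positive (5.56%) and 1982 negative genes (12.9%). The 2 populations taken alone, which share no array, had 80 called genes in BMDC (0.521%, with 0.332% higher and 0.189% lower in BRAF) and 33 in liver (0.215%). There were 5 genes in both lists, 6.25% of the BMDC list and 15.2% of the liver list. Ifi203, Ifi205 and Rtp4 rose in BRAF BMDC and fell in BRAF liver cells, and Emp1 and Plcb4 rose in both. The liver calls of the first 3 were near the threshold: of the 10 fits that leave out 1 array, Ifi203 kept its liver call in 2 (adjusted p up to 0.197), Ifi205 in 4 (up to 0.296) and Rtp4 in 1 (up to 0.214). Without the 2 narrow arrays their liver adjusted p was 0.0776, 0.0749 and 0.103, and after quantile normalization 0.0691, 0.0834 and 0.0182. In BMDC the call of Ifi205 was lost after quantile normalization (adjusted p = 0.0532) and kept in 6 of the 10 fits, and those of Ifi203 and Rtp4 were kept in 9 and 10. The liver call of Plcb4 was kept in 3 of the 10 and that of Emp1 in 10. The count of 21 depended on single arrays: it was 419 without BRAF liver replicate 2 (54 positive and 365 negative), 47 without BRAF BMDC replicate 2, 45 without WT liver replicate 1 (21 positive and 24 negative) and 12 without WT BMDC replicate 1. The liver count of 33 moved more, to 358 without BRAF liver replicate 2, 174 without BRAF BMDC replicate 2, 72 without WT liver replicate 1 and 7 without WT BMDC replicate 1, while that of BMDC ranged over 20 to 103.

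**Figure D1:**
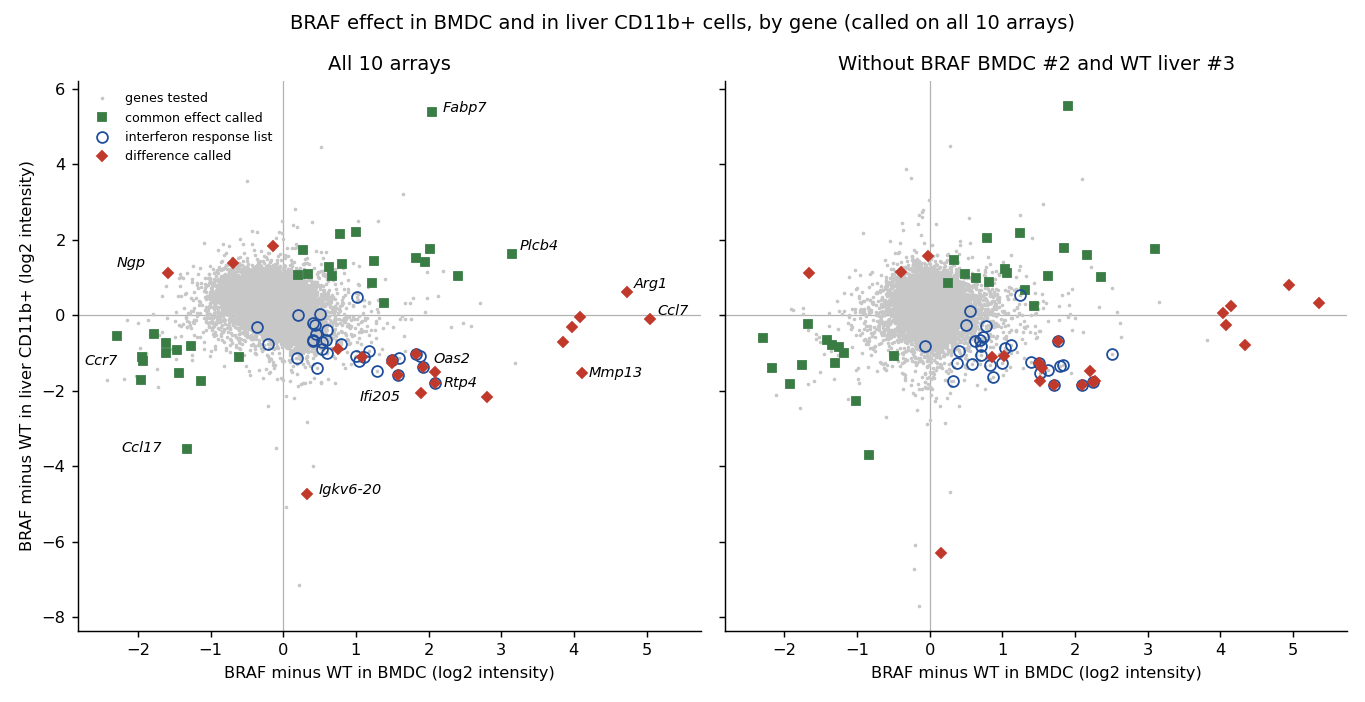
BRAF effect in liver CD11b+ cells (vertical axis, log2 intensity) against BRAF effect in BMDC (horizontal axis, log2 intensity) for each gene tested, on all 10 arrays (left) and without BRAF BMDC replicate 2 and WT liver replicate 3 (right). Red diamonds are the 21 genes with a called difference (4 of them are also called in the mean of both effects), green squares the other genes called in that mean, and blue circles the 30 genes of the interferon response list. The circles lie mostly to the right of 0 and below it in both panels, while the grey cloud tilts downwards in the left panel (r = -0.33) and not in the right one (r = 0.0025).

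Interferon-inducible genes made up a block with effects of opposite sign, although few of the liver effects were called on their own. Rtp4, an interferon-inducible chaperone of G protein coupled receptors, had log2 intensities of 9.45, 8.75 and 9.05 in BRAF BMDC, against 6.81, 7.27 and 6.92 in WT BMDC. In liver it had 7.69 and 8.10 in BRAF cells, against 9.68 and 9.69 in WT cells. The genotypes did not overlap in either population, and BRAF was the higher one in BMDC and the lower one in liver. Rtp4 rose by 2.08 ± 0.28 in BMDC (SE; adjusted p = 0.00289) and fell by 1.79 ± 0.34 in liver (adjusted p = 0.049), a difference of 3.87 ± 0.44 (adjusted p = 0.0011, limma).

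Oas2, which makes the second messenger that activates the antiviral nuclease RNase L, stood at 9.68, 8.98 and 9.34 in BRAF BMDC, against 7.29, 7.51 and 7.44 in WT BMDC. Its liver values were 8.74 and 8.05 in BRAF cells, against 10.26 and 9.31 in WT cells. Again no BRAF value fell among the WT values of the same population. The difference was 3.31 ± 0.43 (adjusted p = 0.00334), made of a rise of 1.92 ± 0.27 in BMDC and a liver effect of -1.39 ± 0.33 that did not pass (adjusted p = 0.114, limma).

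The IFIT proteins bind viral RNA, and 3 of their genes had a called difference. Ifit3 stood at 7.34, 7.01 and 7.53 in BRAF BMDC, against 5.51, 6.17 and 5.48 in WT BMDC, and at 7.72 and 6.89 in BRAF liver cells, against 9.15 and 8.64 in WT liver cells. Ifit1 stood at 8.16, 8.27 and 8.01 in BRAF BMDC, against 5.83, 6.41 and 6.71 in WT BMDC, and at 7.61 and 6.80 in BRAF liver cells, against 7.90 and 8.57 in WT liver cells. Both genes kept their genotypes apart on every array, with the smallest gap for Ifit1 in liver. Their differences were 3.16 ± 0.47 and 2.86 ± 0.42 (adjusted p = 0.011 for each, limma), and that of Ifit2 was 2.68 ± 0.48 (adjusted p = 0.0404). The Ifit3 call was lost without BRAF liver replicate 3 (2.74, adjusted p = 0.0701), that of Ifit1 without the same array (2.46, 0.0681) or WT liver replicate 3 (2.53, 0.0605), and that of Ifit2 without any 1 of 8 arrays (adjusted p up to 0.146).

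The Ifi200 genes, a cluster of mouse genes on chromosome 1 that encode interferon-inducible DNA-binding proteins, had 3 called differences, all positive, among the 5 tested of 13 listed members (0.117% of all genes were called with that sign). Ifi203 had 11.12, 11.22 and 10.97 in BRAF BMDC, against 10.11, 9.78 and 10.17 in WT BMDC. It had 10.16 and 10.17 in BRAF liver cells, against 11.25 and 11.33 in WT liver cells. The 4 groups thus formed 2 levels, a high one in BRAF BMDC and WT liver and a low one in WT BMDC and BRAF liver. The rise of 1.08 ± 0.17 in BMDC (adjusted p = 0.00822) and the fall of 1.12 ± 0.21 in liver (adjusted p = 0.0477) gave a difference of 2.21 ± 0.27 (adjusted p = 0.00206, limma).

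Ifi205 had 9.03, 9.86 and 8.45 in BRAF BMDC, against 7.35, 7.03 and 7.27 in WT BMDC, and 9.81 and 9.09 in BRAF liver cells, against 11.20 and 11.84 in WT liver cells. Its genotypes did not overlap in either population, although the BRAF BMDC values spread more widely than those of Ifi203. It rose by 1.90 ± 0.32 in BMDC (adjusted p = 0.0131), fell by 2.07 ± 0.39 in liver (adjusted p = 0.049) and had a difference of 3.96 ± 0.51 (adjusted p = 0.00305, limma). Ifi213 had the largest difference of the family, 4.97 ± 0.81 (adjusted p = 0.0183), with a rise of 2.81 ± 0.51 in BMDC and a liver effect of -2.17 ± 0.62 that did not pass (adjusted p = 0.181). Its call was lost without any 1 of 5 arrays (adjusted p up to 0.118). Of the other tested members, Ifi209 had a difference of 1.25 ± 0.32 (adjusted p = 0.151), which passed after quantile normalization (1.76, adjusted p = 0.0306, limma). Aim2, a sensor of DNA in the cytosol, had one of 0.08 ± 0.32 (adjusted p = 0.884). Several Ifi200 genes have closely related copies, so a probe set may pick up more than 1 of them and the values of single members are uncertain. The plot of single arrays shows this pattern for 6 interferon-inducible genes.

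**Figure D2:**
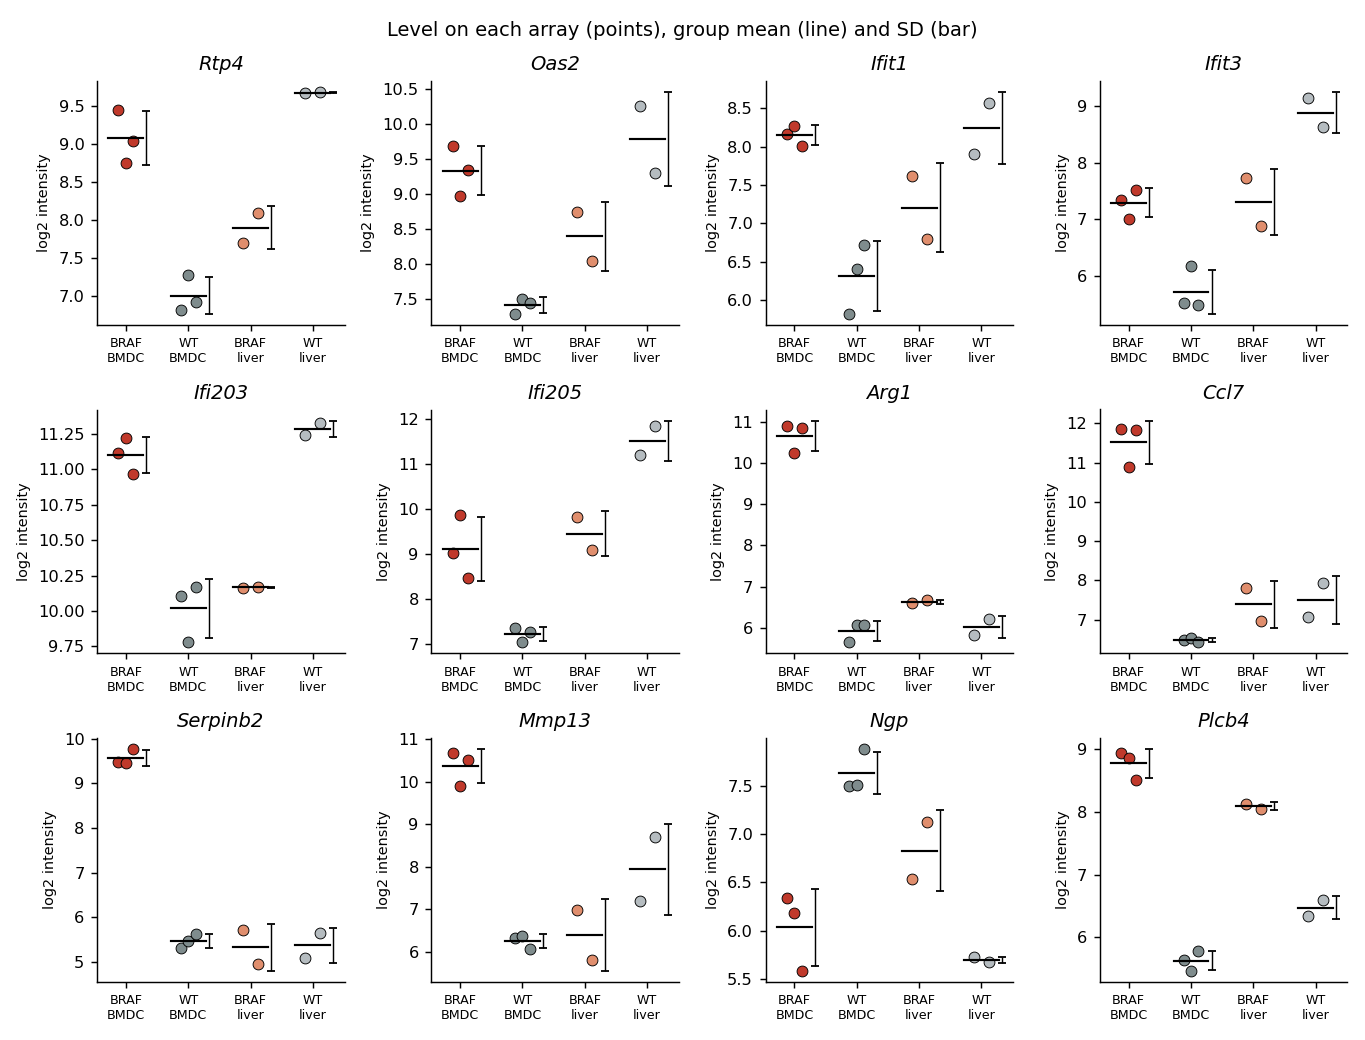
Log2 intensity of 12 genes on each of the 10 arrays (points), with the mean (line) and SD (bar) of each group: BRAF and WT BMDC (n = 3 each) and BRAF and WT liver CD11b+ cells (n = 2 each). Vertical axes do not start at 0 and differ between panels. Rtp4, Oas2, Ifit1, Ifit3, Ifi203 and Ifi205 are higher in BRAF BMDC and lower in BRAF liver than in WT on every array, Ngp is the reverse, and Plcb4 is higher in BRAF in both.

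Promoter sequences of these genes are shown because several of them hold the same interferon-type motif. The search was for GAAA, any 2 bases and GAAA again, the core of interferon-stimulated response elements, on either strand (TTTC, any 2 bases and TTTC when read from the other strand). The windows are the 250 bases before the start of each gene in RefSeq (build GRCm38.p6), written 5′ to 3′ on the gene's strand with the matches in capitals.
Ifit1 (chr19:34640639-34640888, plus strand): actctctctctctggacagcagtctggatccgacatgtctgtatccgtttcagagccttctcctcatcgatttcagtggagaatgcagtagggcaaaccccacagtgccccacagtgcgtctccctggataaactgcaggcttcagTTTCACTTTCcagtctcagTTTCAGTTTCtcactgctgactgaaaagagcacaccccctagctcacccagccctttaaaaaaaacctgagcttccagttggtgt
Ifit3 (chr19:34583279-34583528, plus strand): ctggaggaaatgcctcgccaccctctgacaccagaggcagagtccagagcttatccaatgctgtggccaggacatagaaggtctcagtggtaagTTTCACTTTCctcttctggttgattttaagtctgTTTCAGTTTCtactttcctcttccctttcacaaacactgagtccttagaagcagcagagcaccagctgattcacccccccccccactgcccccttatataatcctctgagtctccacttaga
Ifi203 (chr1:173942493-173942742, minus strand): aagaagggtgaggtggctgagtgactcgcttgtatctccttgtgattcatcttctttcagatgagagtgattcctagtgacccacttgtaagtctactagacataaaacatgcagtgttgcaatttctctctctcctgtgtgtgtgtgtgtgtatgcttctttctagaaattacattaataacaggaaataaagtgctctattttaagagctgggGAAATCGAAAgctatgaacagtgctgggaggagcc
Ifi205 (chr1:174031756-174032005, minus strand): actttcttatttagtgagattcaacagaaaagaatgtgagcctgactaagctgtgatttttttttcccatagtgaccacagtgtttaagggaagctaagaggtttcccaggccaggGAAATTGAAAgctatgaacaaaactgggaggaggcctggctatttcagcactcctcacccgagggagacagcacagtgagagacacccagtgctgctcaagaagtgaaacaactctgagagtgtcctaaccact
Ifit1 and Ifit3 each held 2 matches, and Ifi203 and Ifi205 held 1 each in the windows shown. The other Ifi203 promoter of the table held 0. The table had a promoter for 6 of the 8 called genes of the interferon and Ifi200 lists, and 5 of these 6 (83.3%) held a match: Ifi203, Ifi205, Ifi213, Ifit1 and Ifit3. Some genes have several promoters in the table: counted by promoter, 5 of 8 (62.5%) held a match in these genes, against 978 of 32851 (2.98%) over the whole table. Over the full lists, called or not, 9 of 27 promoters (33.3%) of the interferon response list and 5 of 9 (55.6%) of the Ifi200 list held one. The motif is thus not particular to the called members. Among all 20 called genes other than the immunoglobulin segment, 14 had a promoter and 7 a match, Mmp13 and Phf11a among them. A match is a description of these letters and not evidence of binding.

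The interferon response list held 30 tested genes of 34 listed. Its median difference was 1.50, against -0.11 over all genes tested, with a median BRAF effect of 0.60 in BMDC and -0.94 in liver. The effect was positive in BMDC and negative in liver for 26 of the 30, a pattern of signs that 32.7% of all tested genes had (38.6% had the reverse). No overlap of genotypes in both populations, with BRAF higher in BMDC and lower in liver, was found for 15 of the 30 and for 1.68% of all genes. Of the 30, 5 had a called difference (Rtp4, Oas2, Ifit1, Ifit2 and Ifit3), against 0.117% of all genes with a called positive one. Taken alone, 5 of the 30 were called higher in BRAF BMDC, against 0.332% of all genes. In liver 1 of the 30, Rtp4, was called lower in BRAF, and 0.215% of all genes were called there in either direction. Unadjusted p was under 0.05 with a positive sign for 22 of the 30 and for 5.56% of all genes. Members that did not pass as deposited included Cxcl10, a chemokine for T cells (2.77 ± 0.54, adjusted p = 0.0699), and Irf7, the factor that amplifies interferon production (2.14 ± 0.71, adjusted p = 0.213). Cxcl10 passed after quantile normalization (3.01, adjusted p = 0.0171, limma). The difference of Irf7 was 3.15 without the 2 narrow arrays. Irf9, a transcription factor of the pathway, had a difference of 0.21 ± 0.39 and Stat2 one of 0.55 ± 0.63.

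Averaged over the 30 genes, the log2 level was 8.71, 7.93 and 8.62 on the BRAF BMDC arrays, against 7.44, 7.71 and 7.55 on the WT BMDC arrays. In liver it was 7.98 and 7.80 on the BRAF arrays, against 8.92 and 8.51 on the WT arrays. Both WT liver arrays thus stood above both BRAF liver arrays, and every BRAF BMDC array above every WT BMDC array. BRAF BMDC replicate 2, 1 of the 2 arrays of narrow range, was the lowest of its group, and WT liver replicate 3, the other one, was the lower of its group. Leaving out both thus takes away the lowest BRAF BMDC and the lower WT liver array, and leaves 1 WT liver array. The BMDC median was 0.93 without BRAF BMDC replicate 2, and the liver median was -0.58 without WT liver replicate 1. The median difference ranged over 1.18 to 1.81 when single arrays were left out, and it was 1.70 after quantile normalization, 1.99 without the 2 narrow arrays and 2.10 with both changes. In these 3 repeats 10, 7 and 10 members were called, against 0.338%, 0.358% and 0.56% of all genes. The medians in the rest of the series were 0.09 in lung CD11b+ cells and 0.48 in lung CD103+ cells, whose difference from BMDC or liver was not tested here. In bulk samples fewer cells of a type and less RNA per cell cannot be told apart.

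**Figure D3:**
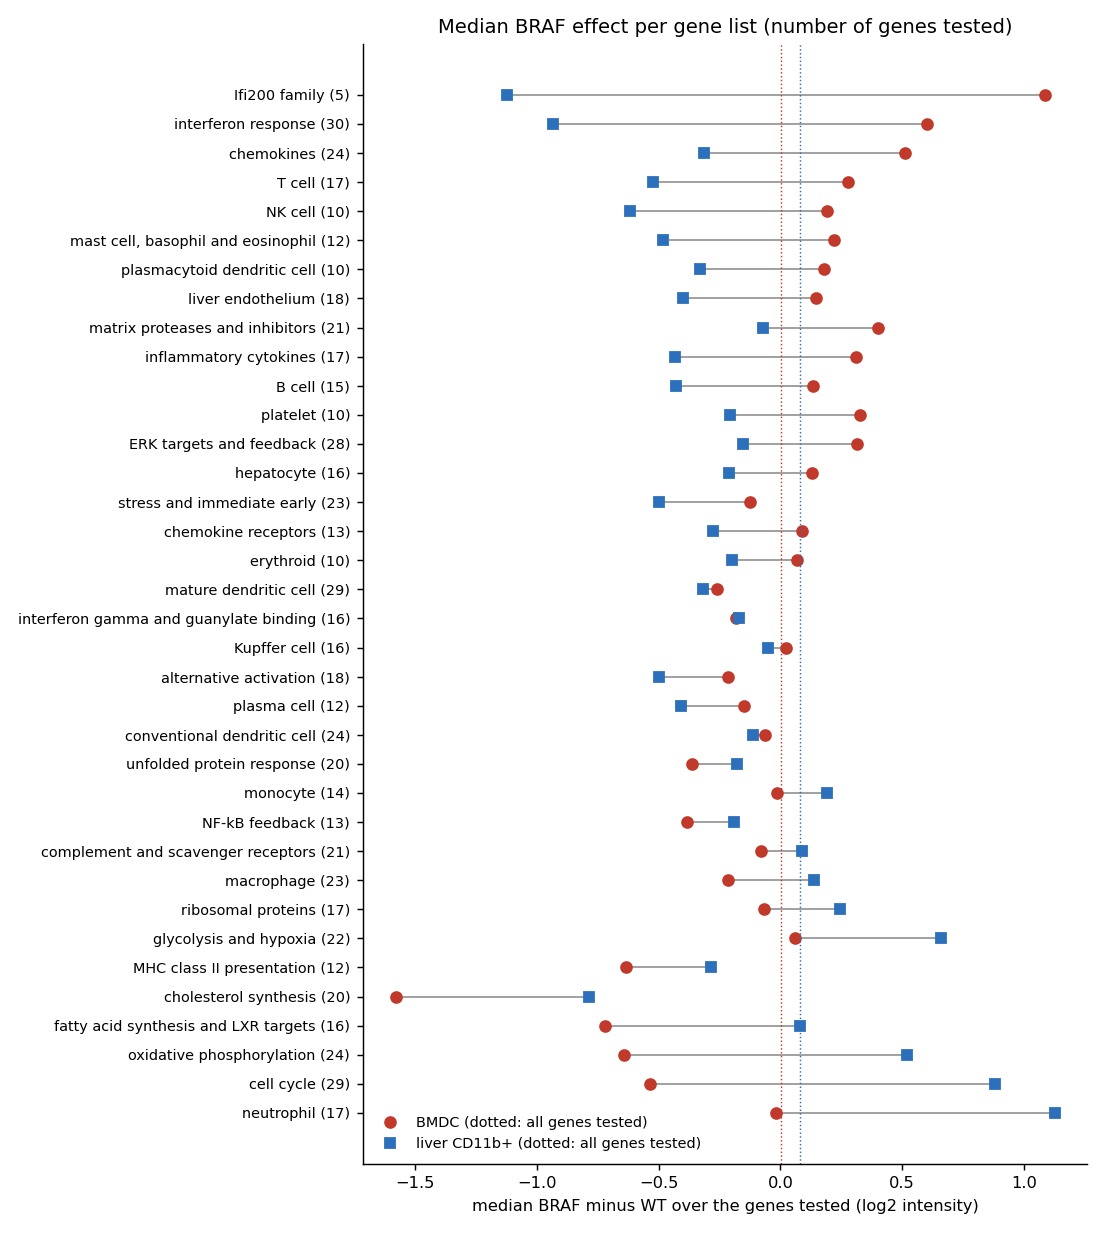
Median BRAF effect (BRAF minus WT, log2 intensity) over the tested genes of each of 36 gene lists, in BMDC (red circles) and in liver CD11b+ cells (blue squares), ordered by the median difference, with the number of genes in parentheses. Dotted lines are the medians over all 15365 genes. The Ifi200 and interferon lists have the widest gap with BMDC on the right, and the neutrophil, cell cycle and oxidative phosphorylation lists lie at the other end.

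Further genes with a called difference, and an effect of positive sign in BMDC and negative sign in liver, were Slfn1, Phf11a and Gramd3. Slfn1, a Schlafen gene linked to growth arrest of lymphocytes, stood at 10.90, 10.36 and 10.48 in BRAF BMDC, against 8.23, 8.50 and 8.74 in WT BMDC, and at 8.38 and 7.58 in BRAF liver cells, against 9.45 and 9.52 in WT liver cells. Its difference was 3.60 ± 0.57 (adjusted p = 0.0166, limma), and the call was lost without any 1 of 4 arrays (adjusted p up to 0.0834). Phf11a had a difference of 2.76 ± 0.44 and Gramd3 one of 1.65 ± 0.28, and both calls were lost without any 1 of 7 and 6 arrays (adjusted p up to 0.0834 and 0.124). The effects of Phf11a were 1.49 in BMDC and -1.27 in liver. Those of Gramd3 were 0.76 and -0.90, neither of them called. Phf11a, Gramd3 and Ifit2 are named outside the rule for naming genes, after their values were seen.

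Further called genes rose strongly in BRAF BMDC and had no called effect in liver. Ccl7 stood at 11.85, 10.89 and 11.83 in BRAF BMDC, against 6.48, 6.54 and 6.42 in WT BMDC, and at 7.82 and 6.97 in BRAF liver cells, against 7.07 and 7.93 in WT liver cells. The BMDC genotypes lay far apart and the liver genotypes overlapped. It rose by 5.04 ± 0.36 in BMDC (adjusted p = 3.54e-06), its liver effect was -0.11 with a 95% interval of -1.06 to 0.84, and the difference was 5.15 ± 0.58 (adjusted p = 0.0011, limma). Its neighbour in function Ccl2 had a difference of 4.30 ± 0.72 (adjusted p = 0.0245), and this call was lost without any 1 of 6 arrays (adjusted p up to 0.137).

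Arg1, the arginase that depletes arginine, stood at 10.89, 10.24 and 10.86 in BRAF BMDC, against 5.65, 6.08 and 6.07 in WT BMDC. In liver it stood at 6.59 and 6.67 in BRAF cells, against 5.84 and 6.21 in WT cells. BRAF was the higher genotype in both populations, so Arg1 is the 1 called gene whose effects had the same sign. The rise was 4.73 ± 0.21 in BMDC (adjusted p = 1.16e-08), the liver effect 0.61 ± 0.26 (adjusted p = 0.319) and the difference 4.12 ± 0.33 (adjusted p = 5.07e-05, limma).

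Serpinb2 encodes plasminogen activator inhibitor type 2, and Serpinb10 a related serpin of marrow cells. Serpinb2 stood at 9.47, 9.46 and 9.76 in BRAF BMDC, against 5.31, 5.47 and 5.64 in WT BMDC, and at 5.71 and 4.97 in BRAF liver cells, against 5.10 and 5.66 in WT liver cells. Its level in liver was that of WT BMDC in both genotypes. Serpinb10 differed in this: it stood at 10.04, 9.26 and 9.82 in BRAF BMDC, against 5.68, 5.64 and 6.25 in WT BMDC, but at 9.46 and 10.53 in BRAF liver cells, against 10.25 and 11.17 in WT liver cells. The differences were 4.13 ± 0.36 for Serpinb2 (adjusted p = 6.19e-05) and 4.56 ± 0.64 for Serpinb10 (adjusted p = 0.00653, limma).

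Mmp13, a collagenase gene under ERK control, had the largest difference, 5.65 ± 0.84 (adjusted p = 0.011, limma). It stood at 10.68, 9.90 and 10.50 in BRAF BMDC, against 6.31, 6.38 and 6.07 in WT BMDC, and at 6.99 and 5.80 in BRAF liver cells, against 7.18 and 8.69 in WT liver cells. The liver genotypes did not overlap but came close, and the liver effect of -1.55 ± 0.65 did not pass (adjusted p = 0.314). The call was lost without BRAF liver replicate 3 (5.06, adjusted p = 0.0701) or WT liver replicate 3 (4.90, 0.0665). Mmp13 was the 1 called gene among 28 of the list of ERK targets and feedback genes (0.137% of all genes were called), whose median difference was 0.44 (0.31 in BMDC and -0.15 in liver), and 0.26 without BRAF liver replicate 3. Further members of that list rose in BMDC, Etv1 by 1.68 ± 0.31 (adjusted p = 0.023) and Fosl1 by 0.91 ± 0.18 (adjusted p = 0.0334), with liver effects of 0.31 and -0.04, and their differences did not pass (adjusted p = 0.225 and 0.196).

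Of the 21 called genes, 8 kept the call without each of the 10 arrays in turn: Arg1, Ccl7, Ifi203, Ifi205, Oas2, Rtp4, Serpinb10 and Serpinb2. The plot of called genes under the 4 treatments of the arrays gives the size of all 21. After quantile normalization 52 genes were called (43 positive and 9 negative, 0.338%), among them all 21. The repeats without the narrow arrays share 1 WT liver array, replicate 1, and are not separate checks. Their calls include pancreas, plasma cell and endothelial genes with little effect in BMDC. Without the narrow arrays the liver and BMDC effects were -2.20 and 0.08 for Ctrb1, -2.85 and 0.22 for Mzb1, and -2.19 and -0.11 for Clec4g. Without BRAF BMDC replicate 2 and WT liver replicate 3 the count was 55 (44 and 11, 0.358%), of which 14 were among the 21. With both changes it was 86 (69 and 17, 0.56%), of which 15 were among the 21. A called difference in all 3 repeats was found for 20 genes, 13 of them also called on all arrays as deposited. Of the 7 others, Parp14, an interferon-inducible ADP-ribosyltransferase, had a difference of 1.06 as deposited and 1.90 with both changes (adjusted p = 0.243 and 0.0411). Ddit3 and Chac1, which belong to the response to unfolded protein and amino acid stress, had 1.40 and 1.72 as deposited and 1.76 and 1.68 with both changes (adjusted p = 0.0289 and 0.0201).

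**Figure D4:**
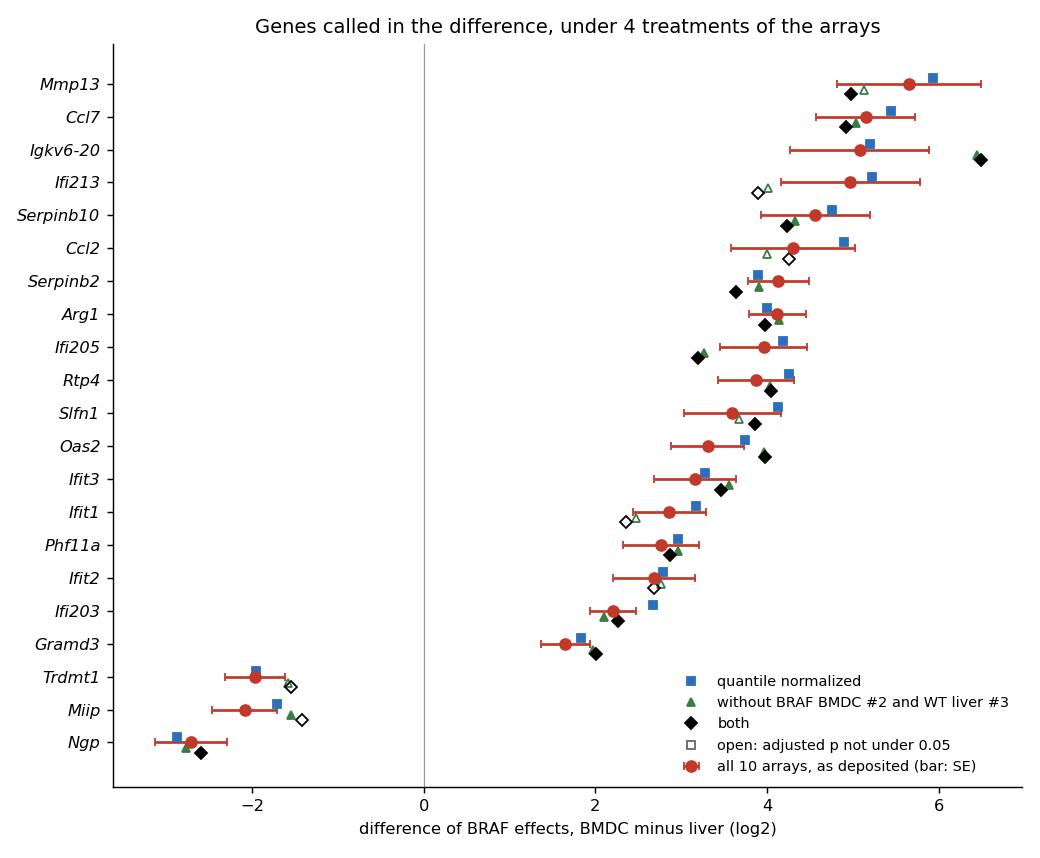
Difference of BRAF effects, BMDC minus liver (horizontal axis, log2), for the 21 called genes, under 4 treatments of the arrays: as deposited (red circles, bars are SE), after quantile normalization (blue squares), without the 2 narrow arrays (green triangles) and with both changes (black diamonds). Open symbols have an adjusted p of 0.05 or more. Every gene keeps its sign in all 4, and Mmp13, Ifi213, Ccl2, Ifit1, Ifit2, Slfn1, Trdmt1 and Miip have at least 1 open symbol.

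Called genes with the reverse pattern were few. Ngp, a granule protein of developing neutrophils, stood at 6.34, 6.18 and 5.59 in BRAF BMDC, against 7.50, 7.51 and 7.88 in WT BMDC, and at 6.53 and 7.12 in BRAF liver cells, against 5.72 and 5.68 in WT liver cells. It fell by 1.59 ± 0.27 in BMDC (adjusted p = 0.012), had a liver effect of 1.12 ± 0.33 (adjusted p = 0.182) and a difference of -2.72 ± 0.42 (adjusted p = 0.0143, limma). The call was lost without BRAF liver replicate 3 (-2.42, adjusted p = 0.0825) or WT liver replicate 3 (-2.70, 0.0614). Trdmt1, a transfer RNA methyltransferase, rose by 1.82 ± 0.27 in liver (adjusted p = 0.0214) with a BMDC effect of -0.15 ± 0.22, a difference of -1.97 ± 0.35 (adjusted p = 0.0426). Miip, an inhibitor of cell invasion, had effects of -0.70 ± 0.24 in BMDC and 1.39 ± 0.29 in liver, neither called, and a difference of -2.09 ± 0.38 (adjusted p = 0.0431). The last 2 calls were lost without any 1 of 7 and 6 arrays (adjusted p up to 0.166 for each).

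Next by p among the negative genes, and not called as deposited, were S100a1 (-2.99 ± 0.56, adjusted p = 0.0597), Pot1a, a telomere protein (-1.28 ± 0.24, 0.0612), and Galnt9 (-1.46 ± 0.28, 0.0612). S100a1, a calcium-binding protein, stood at 11.35, 9.76 and 11.46 in BRAF BMDC, against 11.81, 11.89 and 12.15 in WT BMDC, and at 10.95 and 11.16 in BRAF liver cells, against 9.09 and 9.22 in WT liver cells. The low BMDC value is that of the narrow array, and without the 2 narrow arrays the gene was called (-2.51, adjusted p = 0.0252). Lcn2, an iron-binding protein of neutrophils and macrophages, rose by 3.56 ± 0.65 in BRAF liver cells (adjusted p = 0.0453), had a BMDC effect of -0.50 ± 0.53, and missed the threshold in the difference (-4.06 ± 0.84, adjusted p = 0.0915). The neutrophil list had a median difference of -1.47 over the 17 genes that passed the filter, -0.33 over all 19 matched genes, and, over the 17, -0.21 without BRAF liver replicate 3. On that array Elane, the elastase of immature neutrophils, stood at 11.14, against 6.68 on BRAF liver replicate 2 and 6.26 and 7.13 in WT liver cells. Ly6g, a surface marker of mature neutrophils, stood at 5.16 to 6.04 on all liver arrays. The part of such cells in the liver effect was not tested.

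One immunoglobulin segment, Igkv6-20, was called through liver alone: it stood at 5.58 and 5.18 in BRAF cells, against 11.68 and 8.58 in WT cells, and at 4.96 to 5.69 in all BMDC. Its difference was 5.08 ± 0.81 (adjusted p = 0.0166, limma), and the call was lost without WT BMDC replicate 1 (5.10, adjusted p = 0.0535) or BRAF liver replicate 3 (4.88, 0.0829). Plasma cell genes were likewise lower in BRAF liver cells: Jchain, which joins secreted antibodies, stood at 7.16 and 4.96 in BRAF liver cells, against 12.15 and 10.16 in WT liver cells. Over the 12 plasma cell genes the mean level was 7.73 and 7.71 on the BRAF liver arrays, against 9.14 and 8.12 on the WT liver arrays. Genes of T cells (6.22 and 6.09, against 6.70 and 6.70) and liver endothelium (6.88 and 6.85, against 7.47 and 7.12) were also lower on both BRAF liver arrays than on both WT liver arrays. The hepatocyte list did not follow the genotype, at 7.54 and 6.34 on the BRAF arrays, against 7.64 and 6.58 on the WT arrays. Pancreas transcripts were detected on WT liver replicate 1, where Ctrb1 stood at 8.51 against 6.25 to 6.70 on the other liver arrays. The part of these cells in the liver effects, those of the interferon genes included, was not tested. In BMDC, Jchain stood at 4.27 to 4.99. The plasma cell list was at 7.61, 7.13 and 7.61 on the BRAF BMDC arrays, against 7.75, 7.76 and 7.66 on the WT BMDC arrays, and the T cell list at 6.46, 6.87 and 6.33, against 6.18, 6.20 and 6.22.

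Some genes had a called effect in liver and little effect in BMDC. For Retnla, which macrophages express in response to interleukin-4, BRAF liver cells had 5.29 and 4.84, against 9.74 and 8.36 in WT liver cells. It fell by 3.99 ± 0.67 (adjusted p = 0.0292) and its BMDC effect was 0.41 ± 0.55, which left a difference of 4.40 ± 0.86 short of the threshold (adjusted p = 0.0708, limma). Ptprb, a phosphatase of endothelial cells, fell by 1.71 in liver (adjusted p = 0.027) and had a BMDC effect of 0.00026. The eosinophil chemokine Ccl24 fell by 1.68 in liver (adjusted p = 0.0377) and Cpa3, a carboxypeptidase of mast cells, by 1.66 (adjusted p = 0.0214), with BMDC effects of -0.09 and -0.03. Differences of these genes did not pass as deposited either (adjusted p = 0.0927, 0.126 and 0.0839). After quantile normalization the differences of Retnla, Ptprb, Ccl24 and Cpa3 all passed (adjusted p = 0.0265, 0.0364, 0.0364 and 0.028, limma). That of Ptprb was 1.70 there, 1.90 without the 2 narrow arrays and 2.04 with both changes.

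Other genes had effects of the same sign in both populations. The mean of the 2 effects passed the test for 34 genes (0.221%), 20 higher (0.13%) and 14 lower in BRAF (0.0911%), and 31 of these had the same sign in both, which a large mean favours by its construction. This count ranged over 15 (without WT BMDC replicate 1 or 2) to 87 (without BRAF BMDC replicate 2). Plcb4, a phospholipase of G protein signalling, stood at 8.95, 8.86 and 8.51 in BRAF BMDC, against 5.63, 5.47 and 5.77 in WT BMDC, and at 8.13 and 8.04 in BRAF liver cells, against 6.34 and 6.60 in WT liver cells. It rose by 3.15 ± 0.24 in BMDC (adjusted p = 5.57e-06) and by 1.62 ± 0.29 in liver (adjusted p = 0.0439), and the mean effect was 2.38 ± 0.19 (adjusted p = 1.91e-05, limma). Emp1, an epithelial membrane protein, rose by 2.02 ± 0.19 and 1.76 ± 0.24, and the 95% interval of its difference ran over -0.40 to 0.92.

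Fabp7, a fatty acid binding protein best known from brain, stood at 10.02, 9.98 and 9.06 in BRAF BMDC, against 7.69, 7.18 and 8.05 in WT BMDC, and at 12.35 and 11.20 in BRAF liver cells, against 6.23 and 6.56 in WT liver cells. Fabp7 thus had effects of the same sign but not of the same size, with a wider gap between genotypes in liver than in BMDC. It had the largest called mean effect, 3.71 ± 0.54 (adjusted p = 0.00725, limma), which missed the threshold without the 2 narrow arrays (3.72, adjusted p = 0.0581). Ccr7, through which maturing dendritic cells reach the draining lymph nodes, fell by 1.58 ± 0.22 in the mean of both populations (adjusted p = 0.00544), and its difference was -0.71 ± 0.44 (adjusted p = 0.352). Ccl17, a chemokine of mature dendritic cells, fell by 2.43 ± 0.46 (adjusted p = 0.0458) and Hmgcs1, of cholesterol synthesis, by 1.53 ± 0.24 (adjusted p = 0.0129). The Ccl17 call was lost in 9 of the 10 fits that leave out an array (adjusted p up to 0.126), and that of Hmgcs1 without WT liver replicate 1 (-1.43, adjusted p = 0.0605).

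Genes of cholesterol synthesis had mostly negative effects in both populations. Over 20 tested genes the median was -1.58 in BMDC and -0.79 in liver (-0.39 without BRAF liver replicate 2), the effect was negative in BMDC for 20 and in liver for 16, and 11 fell in BMDC (0.189% of all genes did), 0 in liver and 6 in the mean effect (0.0911% of all genes). No member had a called difference (0 of 20), and the median difference was -0.68. Unadjusted p was under 0.05 for 6 of the 20, all negative, and for 12.9% of all genes with that sign. Hsd17b7, a late enzyme of the pathway, fell by 1.86 in BMDC (adjusted p = 0.00375) with a liver effect of -0.13, a difference of -1.72 ± 0.41 (adjusted p = 0.126).

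Genes of cell division and respiration had the reverse signs of the interferon list, with no called member (limma). The effect of all 29 tested cell cycle genes was negative in BMDC (median -0.54) and positive in liver (median 0.88), signs that 38.6% of all genes had. Separate genotypes in both populations, with these signs, were shown by 0 of 29, against 2.95% of all genes. Unadjusted p was under 0.05 with a negative sign for 6 of 29 and for 12.9% of all genes. A single array moved this value: the mean level of the list was 7.43 on BRAF liver replicate 2 and 10.04 on BRAF liver replicate 3, against 8.04 and 7.61 on the WT liver arrays. The median difference was -1.41 on all arrays, -0.20 without BRAF liver replicate 3 and -2.70 without BRAF liver replicate 2. Rrm1, a subunit of ribonucleotide reductase, had a difference of -2.41 ± 0.94 (adjusted p = 0.242).

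Over the 24 genes of oxidative phosphorylation the effect was negative in BMDC for 24 and positive in liver for 23, with a median difference of -1.15. Separate genotypes with BRAF lower in BMDC and higher in liver were found for 7 of 24, against 2.95% of all genes. Unadjusted p was under 0.05 for 16, all negative, and for 12.9% of all genes. Sdhb, a subunit of succinate dehydrogenase, had the smallest p, with a difference of -1.57 ± 0.42 (adjusted p = 0.162). The median difference was -0.69 after quantile normalization, -0.78 without the 2 narrow arrays and -0.58 with both changes. These genes are among the more highly expressed ones, and the level of a gene was related to its difference as described next.

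Across all genes tested, the difference depended on the level of the gene and on the 2 narrow arrays. On all arrays as deposited the median difference was 0.37 in the lowest of 10 equal groups of genes by mean level and -0.63 in the highest, with a rank correlation of -0.61 between level and difference. After quantile normalization the correlation was -0.17, without the 2 narrow arrays -0.19, and with both changes -0.05. The BRAF effects of BMDC and liver correlated at r = -0.33 across genes (Spearman's rho -0.46) on all arrays, at -0.18 (-0.25) after quantile normalization, at 0.0025 (-0.03) without the 2 narrow arrays and at 0.011 (-0.02) with both changes. Genes are not independent replicates, and these values are descriptions across 15365 genes of the same 10 arrays. The negative relation over all genes was thus absent without those arrays, while the median difference of the interferon list was larger without them. The WT liver group is then 1 array, replicate 1, the higher of its group for that list (8.92, against 8.51). The BRAF BMDC array left out was the lowest of its group (7.93). The larger median is thus tied to which arrays were left out and is no separate support. Centring each array on its median moved the median difference of all genes to -0.26, against -0.11 as deposited.

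**Figure D5:**
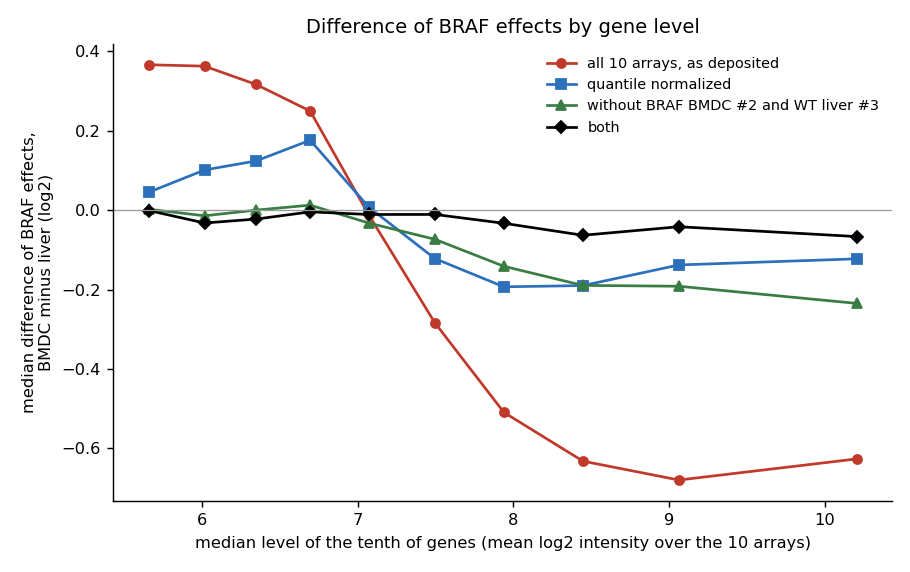
Median difference of BRAF effects, BMDC minus liver (vertical axis, log2), in 10 equal groups of genes ordered by mean level (horizontal axis, median log2 intensity of the group over the 10 arrays), under 4 treatments of the arrays. The line for all arrays as deposited reaches -0.68 in the group next to the highest, and the line with both changes stays within 0.07 of 0.

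The chemokine list had a median difference of 1.11 over 24 tested genes, with 2 called (Ccl2 and Ccl7, against 0.137% of all genes), and 0.71 without BRAF liver replicate 3. Cxcl3, a neutrophil attractant, rose by 1.61 ± 0.25 in BMDC (adjusted p = 0.00822) and had a liver effect of -0.10 ± 0.31, with a difference that did not pass (1.71 ± 0.40, adjusted p = 0.126). Inflammatory cytokines had a median difference of 0.55 over 17 genes with 0 called. Unadjusted p was under 0.05 for 6 of the 17 (limma), all positive, and for 5.56% of all genes with that sign. Il1rn, the antagonist of the interleukin-1 receptor, had a difference of 1.54 ± 0.52 (adjusted p = 0.218).

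In lung, the same genes gave values that can be read beside those of BMDC and liver. The BRAF effect of Arg1 was 2.37 in lung CD11b+ cells (adjusted p = 0.00141) and 0.86 in lung CD103+ cells, and that of Plcb4 2.00 (adjusted p = 0.00715) and 0.59. Rtp4 had 0.20 and 0.98, Oas2 -0.04 and 0.98, Ifit1 0.71 and 1.50, and Ifi205 0.24 and -0.16, none of them called. Serpinb2 had 0.99 and -0.17 and Ccl7 0.16 and 0.69, again not called. Whether these effects differ from those in BMDC or liver was not tested here.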

How the data were processed

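RNA of sorted mouse cells was measured on 1-colour Affymetrix arrays (biotin label, Trizol extraction, per the labels). The authors deposited 1 linear intensity per probe set and array, between 4.90 and 20362, with medians of 93.7 to 113.2. Their normalization: not given in the sources used here. Of 24922 probe sets, 21425 had 1 gene symbol in the platform annotation, 1399 had several and 2098 were unlisted, and only the first were used. Of genes with several probe sets (921 of 19752), the one with the highest mean was kept. Testing required a value above the 30th percentile of all probe sets on 2 arrays or more (15365 genes).

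Values were analysed as log2 of the deposited intensity, with no pseudocount. limma 3.58.1 (R 4.3.3) fitted all 18 arrays with 1 mean per group (residual df 10, prior df 4.8), and empirical Bayes tests were two-sided with Benjamini-Hochberg adjustment over all genes tested. Errors are SE, and intervals are 95%. The difference was repeated after quantile normalization and without the 2 arrays of narrowest range. Other alternatives were median centring, interquartile scaling, cyclic loess, array weights, other filters and probe-set rules, a replicate block, the 10 arrays alone and leaving out each array. The number of arrays limits the precision. On simulated data with independent normal noise the same fit was tested with known changes. Those data held no narrow arrays and no trend with gene level, so the test does not bear on how such arrays move the calls. Tables were made with pandas 2.3.3 and numpy 2.4.6 in Python 3.11.15, and figures with matplotlib 3.10.9.

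The comparison and the 37 gene lists (681 of 757 entries matched) were chosen with earlier results of these data known. Genes named by rule are Braf, Itgax and Ccr7, the 12 called genes with the largest difference in each direction (filled up by p to 8, as not called, where fewer were called), the 5 called genes with the largest mean effect in each direction, and up to 4 genes with the smallest p of each list. Predicted genes and immunoglobulin or T cell receptor segments were passed over. Others were chosen after their values were seen, among them Emp1, Igkv6-20, Phf11a, Gramd3, Ifit2 and the marker genes.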

Additional observations from a re-analysis of the deposited data

Results flagged for a closer look

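The genes here are those whose BRAF effect differed between BMDC and liver CD11b+ cells by a test of the difference itself (limma, Benjamini-Hochberg adjusted p under 0.05). Values are BMDC minus liver, log2 intensity, over 6 BMDC and 4 liver arrays. Interferon-inducible genes had differences of 4.97 (Ifi213), 3.96 (Ifi205), 3.87 (Rtp4), 3.31 (Oas2), 3.16 (Ifit3), 2.86 (Ifit1), 2.68 (Ifit2) and 2.21 (Ifi203). Genes with a large rise in BRAF BMDC had 5.65 (Mmp13), 5.15 (Ccl7), 4.56 (Serpinb10), 4.30 (Ccl2), 4.13 (Serpinb2) and 4.12 (Arg1). Further positive differences were 3.60 (Slfn1), 2.76 (Phf11a) and 1.65 (Gramd3), and the immunoglobulin segment Igkv6-20 had 5.08 through its fall in BRAF liver cells. The negative differences were -2.72 (Ngp), -2.09 (Miip) and -1.97 (Trdmt1).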

How the results depend on the processing

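The signs of all 21 called differences held in the repeats, and counts of calls moved, for causes that were not tested. The difference had 21 called genes as deposited, 52 after quantile normalization, 55 without the 2 narrow arrays, 86 with both, 64 after cyclic loess and 13 with array weights (13 higher and 0 lower), and 15 higher and 6 lower after median centring. The mean effect had 34, against 78 after quantile normalization, 57 with both changes, 21 after median centring, 60 after interquartile scaling and 59 after loess. The BMDC effect had 80, against 1656 with array weights. The liver effect had 33, against 59 after quantile normalization, 96 with both changes, 61 after interquartile scaling, 18 with probe sets averaged, 15 on the 10 arrays alone and 1 with array weights. Leaving out 1 array gave 12 to 419 for the difference, 15 to 87 for the mean effect, 20 to 103 for BMDC and 7 to 358 for liver. Same-numbered arrays showed no uniform pairing (correlations of same-numbered deviations 0.469, -0.231 and -0.399 in BMDC and -0.204 in liver), and 2 of 6 BMDC arrays correlated best with their own number. Deviations from the mean of so few arrays are tied to each other, so these values cannot decide whether the samples were paired. A replicate block gave 23 differences as a 3-level term (18 of them among the 21), and within each population 18 (11 higher and 7 lower, 6 of them among the 21), 9 for the mean effect (2 shared), 14 for BMDC (11 shared) and 11 for liver (2 shared). The difference of Braf turned positive after quantile normalization (0.26), without the narrow arrays (0.10), with both (0.24), after interquartile scaling (0.11) and after loess (0.33), and was -0.54 at the lowest when 1 array was left out. That of Itgax (-0.31 as deposited) became 0.17, 0.47, 0.67, 1.11 and 0.19 in the same settings, 0.088 with array weights, and -0.73 to 0.19 when 1 array was left out, positive without BRAF BMDC replicate 2 (0.19) or BRAF liver replicate 2 (0.11). That of Cyp51 turned to 0.27 after quantile normalization, 0.10 with both changes, 0.22 after interquartile scaling, 0.24 after loess and 0.086 without BRAF liver replicate 3 (-0.55 at the lowest without another array). That of Olfr111 turned to -0.02 without the narrow arrays, -0.054 after median centring, -0.04 without BRAF BMDC replicate 1, -0.14 without BRAF liver replicate 3 and -0.17 without WT liver replicate 3 (0.36 at the highest without another array). That of Aim2 (0.08 as deposited) was -0.072 after median centring, -0.030 with the replicate block as a 3-level term, and -0.067 to 0.22 when 1 array was left out. Of the list medians, chemokine receptors turned to -0.073 without the narrow arrays, -0.051 with both changes and -0.17 with a filter at the 50th percentile (0.42 at the highest without 1 array), matrix proteases to -0.44 with that filter, and the stress list to -0.17 without WT liver replicate 1 (0.92 without the narrow arrays). Ribosomal proteins turned to 0.083 after quantile normalization, 1.21 after interquartile scaling and 0.16 after loess. Macrophage genes turned to 0.14 after quantile normalization, 0.092 with both changes, 0.40 after interquartile scaling and 0.22 after loess. Erythroid genes turned to -0.24 without the narrow arrays, -0.21 with both changes, -0.029 after interquartile scaling, -0.070 after loess and -0.06 without WT liver replicate 3 (0.58 without WT liver replicate 1). With 2 liver arrays per genotype, small effects in liver could not be resolved.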

Other observations

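Further gene lists gave these values. Genes of fatty acid synthesis and LXR targets had a median difference of -0.99 over 16 genes. That median was -0.51 after quantile normalization, -0.33 without the 2 narrow arrays, -0.24 with both changes and -0.45 without BRAF liver replicate 3. Of the 16, 0 were called and 3 had an unadjusted p under 0.05 (limma), all negative, against 12.9% of all genes. Mature dendritic cell genes had 0.23 over 29 genes (-0.08 without BRAF liver replicate 3), with negative effects for 20 in BMDC and 25 in liver. Of the 29, 3 fell in the mean effect, against 0.0911% of all genes. Genes induced by interferon gamma had 0.18 over 16 genes, beside the 1.50 of the interferon response list. The 0.18 became 0.04 without WT liver replicate 1, 0.36 without BRAF BMDC replicate 2 and 0.58 with both changes. As deposited, 0 of these 16 genes were called and 3 had an unadjusted p under 0.05 (limma), all positive, against 5.56% of all genes. The list leaves out some guanylate-binding genes: Gbp8 and Gbp9 had differences of 3.18 and 2.00 without the 2 narrow arrays.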
